A study of Mus musculus with 2 samples.

Results

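Chromatin accessibility was described at the Myc locus and at the genes of the MYC network in mouse regulatory T cells. The members were 8 genes, namely Myc, its neighbour Pvt1, the paralogs Mycn and Mycl, the partner Max and the antagonists Mxd1, Mxi1 and Mnt. They were chosen by name, and their accessible regions by position. A region was taken where it overlapped the gene body or 10 kb to either side. For Myc the window ran on for 2 Mb beyond the gene end, so that it held all of Pvt1 and the gene desert. This rule took 148 of the 68832 regions of replicate 1 and 160 of the 78178 of replicate 2 on chromosomes 1 to 19, X and Y. Both lists together gave 63433 replicated regions, that is, places where entries of both lists overlapped by at least 1 bp, and 134 of them belonged to the members.

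The study measured ATAC-seq, in which a transposase cuts and tags open DNA, in 2 libraries of 1 group. The labels describe primary regulatory T cells of strain C57BL/6NJ, give no age or sex, and point to a differentiation protocol for CD4 T cells, which was not read. Entry names in the deposited lists give 72 hours and hold the words ASTARR and insert, so whether plain ATAC-seq libraries or inserts for another assay were listed was not established. Both libraries carry the same donor identifier, and the spread between them may be technical. There was no second condition, and no test between conditions could be made. Promoters of all 5 regulatory T cell markers (Foxp3, Il2ra, Ctla4, Ikzf2 and Tnfrsf18) and of all 5 T cell markers were accessible in both replicates. The same held for 1 of 4 B cell, 1 of 4 myeloid, 0 of 3 hepatocyte and 1 of 3 neuron markers. Read numbers are unknown for either list.

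MYC is a transcription factor that drives growth, ribosome production and metabolism, and activated T cells raise it quickly before they divide. It binds DNA at E-boxes only as a pair with MAX. The MXD proteins, MXI1 and MNT also pair with MAX, occupy the same E-boxes and recruit SIN3 corepressors, so the network balances growth against quiescence. Myc lies beside the long noncoding RNA gene Pvt1 and a gene desert that carries distant enhancers, among them a Notch-bound enhancer of T cells and a cluster active in blood cells. No coordinates of those enhancers were at hand, so no region below was matched to them.

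By the -log10 q deposited for each region, the strongest replicated regions of the Myc window all lay far from the Myc start. The DNA under the first 6 of them is shown. The order by signal differs, as given below. Each stretch covers the summit of replicate 1 and 100 bases to either side on mm10, and is named by its distance downstream of the Myc start. Capitals mark matches to any of the 11 motifs searched.
Region 286.1 kb at chr15:62271399-62271599, plus strand: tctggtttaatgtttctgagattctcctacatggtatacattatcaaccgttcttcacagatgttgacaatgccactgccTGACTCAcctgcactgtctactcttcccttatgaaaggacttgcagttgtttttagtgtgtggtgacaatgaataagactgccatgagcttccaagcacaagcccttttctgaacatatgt
Region 749.7 kb at chr15:62735038-62735238, plus strand: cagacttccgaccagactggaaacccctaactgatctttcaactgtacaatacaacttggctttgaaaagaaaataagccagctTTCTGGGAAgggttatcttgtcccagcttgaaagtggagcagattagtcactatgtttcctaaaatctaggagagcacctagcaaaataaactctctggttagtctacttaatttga
Region 204.5 kb at chr15:62189805-62190005, plus strand: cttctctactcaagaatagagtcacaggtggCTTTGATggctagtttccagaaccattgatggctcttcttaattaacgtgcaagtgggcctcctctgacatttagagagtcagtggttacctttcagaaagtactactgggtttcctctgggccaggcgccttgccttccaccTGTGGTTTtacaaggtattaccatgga
Region 260.1 kb at chr15:62245418-62245618, plus strand: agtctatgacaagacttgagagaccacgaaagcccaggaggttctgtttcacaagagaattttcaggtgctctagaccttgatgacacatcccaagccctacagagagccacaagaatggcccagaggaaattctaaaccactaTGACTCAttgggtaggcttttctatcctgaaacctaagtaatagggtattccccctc
Region 244.4 kb at chr15:62229671-62229871, plus strand: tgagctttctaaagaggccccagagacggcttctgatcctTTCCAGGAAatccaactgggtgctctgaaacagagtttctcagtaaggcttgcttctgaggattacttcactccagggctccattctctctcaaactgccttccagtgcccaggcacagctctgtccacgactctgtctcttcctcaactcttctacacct
Region 1283.4 kb at chr15:63268730-63268930, plus strand: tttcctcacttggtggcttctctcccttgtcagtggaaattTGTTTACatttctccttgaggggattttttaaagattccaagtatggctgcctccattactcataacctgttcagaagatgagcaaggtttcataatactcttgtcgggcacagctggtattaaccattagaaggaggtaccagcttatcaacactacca
The capitals are TGANTCA, the AP-1 motif, at 286.1 and 260.1 kb. They are TTCNNNGAA, the STAT motif, at 749.7 and 244.4 kb. The region at 204.5 kb holds a TCF-LEF match (CTTTGNT) and a RUNX match (TGTGGTTN), and the region at 1283.4 kb holds TGTTTAC, a forkhead motif. No E-box (CACGTG) stands in any of these 6 windows. Such windows are too few to compare shares. Of 48177 replicated regions genome-wide outside promoters of protein-coding genes, 3.2% held an E-box, 22.6% an AP-1 match and 16% a STAT match. For TCF-LEF, RUNX and TGTTTAC the shares were 17.4%, 10.5% and 2.36%.

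The Myc window was dense in accessible regions. It spans chr15:61975391-63990374, or 2.015 Mb, with 124 entries in the list of replicate 1 and 130 in that of replicate 2. Of these, 91.1% and 86.2% were overlapped by the other replicate, and 112 replicated regions resulted. That is 55.6 per Mb, against 24 per Mb over the ungapped genome, a ratio of 2.32. Among 1296 windows of 2 Mb tiled over the genome, 107 held at least as many (8.26%), and the median window held 42. Those windows include gene-rich DNA, whereas the Myc window holds few protein-coding genes. The density is a count of regions and not a measure of their strength. By signal the 112 had a median percentile of 44.7 and 48.8 in the 2 lists, below the 53.8 and 59 of all replicated regions. By -log10 q the medians were 56.8 and 60.9, against 53.8 and 59.3.

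Compared with other long stretches free of protein-coding genes, the gap from Myc to Gsdmc was the densest. It is 1.786 Mb long, takes in the noncoding gene Pvt1, and held 98 replicated summits, or 54.9 per Mb. There were 292 such gaps of at least 1 Mb, with a median of 0.622 per Mb, and 1 of them (0.342%), the Myc gap itself, reached this density. The gaps include those on chromosome Y, none of which held a replicated summit. How well reads can be placed in each gap was not considered. The next was the gap from Vrk1 to 3110018I06Rik on chromosome 12, with 47.5 per Mb. The gap on the other side of Myc, from A1bg to Myc, held 26 replicated summits in 1.062 Mb, or 24.5 per Mb, and ranked 8. This ranking was added after values had been seen. When gaps of at least 500 kb were admitted, the Myc gap ranked 5 of 712.

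**Figure D1:**
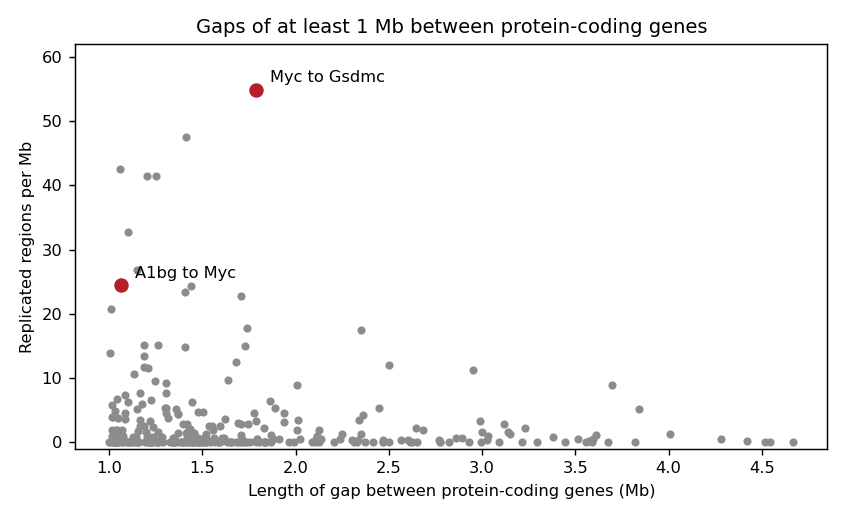
Replicated regions per Mb (vertical axis) against length in Mb (horizontal axis) for the 292 gaps of at least 1 Mb between protein-coding genes; each point is 1 gap. The gap from Myc to Gsdmc (red, 54.9 per Mb) lies above the others, and the gap upstream of Myc (red, A1bg to Myc) stands at 24.5 per Mb.

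Accessibility in the window was gathered in a few stretches. Pvt1 itself, at chr15:62037986-62378096 on the plus strand, held 37 replicated summits in 0.3401 Mb (109 per Mb). The desert from the Pvt1 end to Gsdmc held 57 in 1.398 Mb (40.8 per Mb). The end of the window, with the Gsdmc cluster and part of Fam49b, held 9 in 0.2144 Mb, and these lie in or beside other genes. The stretch between Myc and Pvt1, 0.0476 Mb long, held 4.

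By distance from the Myc start, the first 400 kb held 44 replicated summits. A second cluster lay between 700 and 900 kb, with 29 summits in replicate 1, 30 in replicate 2 and 28 replicated (140 per Mb). Its bin from 800 to 900 kb held 15 replicated summits, a count reached by 0.51% of 27247 bins of 100 kb across the genome. Between these clusters, 400 to 700 kb held 10. Beyond them, 900 to 1600 kb held 10 in 700 kb (14.3 per Mb). From 1600 to 1800 kb there were 8 (40 per Mb), and from 1800 to 1900 kb none. The stretch from 1900 to 2000 kb held 9 (90 per Mb). The longest stretches without a replicated summit were 187.8 kb, from 1357.4 to 1545.2 kb, and 183.7 kb, from 954.2 to 1137.9 kb. Replicates gave like counts in each bin, differing by at most 3 summits.

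**Figure D2:**
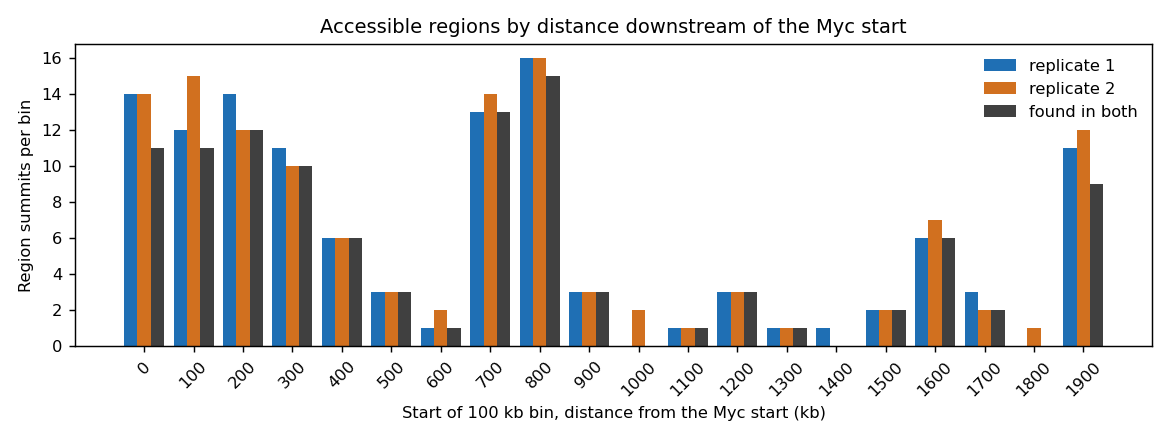
Region summits per 100 kb bin (vertical axis) against distance downstream of the Myc start in kb (horizontal axis), in replicate 1, in replicate 2 and found in both. The first 400 kb and the bins from 700 to 900 kb hold most of the summits, with 44 and 28 replicated.

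By the deposited -log10 q, the authors' own value for each region, 2 regions of the window shared the best mean rank. One lay 286.1 kb from Myc in an intron of Pvt1 and was the first in replicate 1. Its -log10 q was 239 in replicate 1 and 350 in replicate 2, at the 96.7 and 97.1 percentile of the lists. The other lay 749.7 kb away, in an intron of the long noncoding RNA gene Gm41333, with 233 and 407, and was the first in replicate 2. Next came a region at 204.5 kb in Pvt1, with 233 and 343. Of the 10 strongest regions, 6 lay in introns of Pvt1, between 184.1 and 286.1 kb from Myc. The other 4 lay in the desert, at 471.8, 749.7, 824.1 and 1283.4 kb. All 10 had a -log10 q of at least 134 in replicate 1 and 177 in replicate 2, and the Myc promoter, at 103 and 155, was not among them.

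The order differs by the deposited signal, whose scale is not stated. By signal the highest region in replicate 1 lay at 713.4 kb, with 15.7 in replicate 1 and 15 in replicate 2. In replicate 2 it was the region at 381.1 kb in Pvt1, with 14.7 in replicate 1 and 15.1 in replicate 2. Neither was among the 10 strongest by -log10 q. Of those 10, the regions at 260.1 and 244.4 kb in Pvt1 had the highest signals, 14 and 14.1 in replicate 1 and 13.8 and 14.4 in replicate 2. The region at 1283.4 kb, with only weak neighbours, had a signal of 13.4 and 13 and a -log10 q of 183 and 266. Its neighbours on either side were at 1276.3 kb, with a -log10 q of 5.46 and 10.7, and at 1357.4 kb, with 11.8 and 20.9. Among the 112 replicated regions, the Spearman correlation between replicates was 0.956 for signal and 0.97 for -log10 q. Over all 63433 replicated regions it was much the same, 0.95 and 0.965. This is a description across regions, which share the library and its depth. Summits lay a median of 27.5 bp apart.

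**Figure D3:**
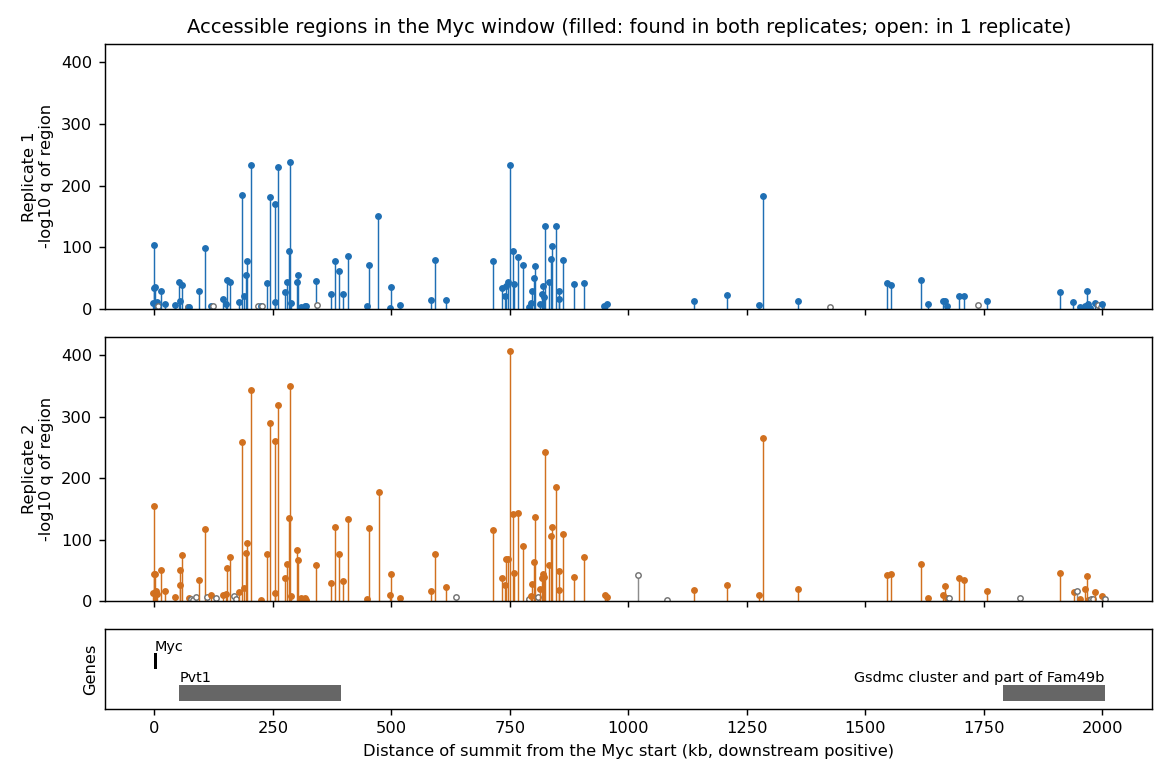
The -log10 q of each region (vertical axis) against the distance of its summit from the Myc start in kb (horizontal axis), for replicate 1 (blue) and replicate 2 (orange), with open circles for regions of 1 replicate alone and genes drawn to scale below. Tall regions stand within Pvt1, between 700 and 900 kb, and at 1283.4 kb.

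The Myc gene, at chr15:61985391-61990374 on the plus strand, was accessible at its promoter in both replicates. With a promoter taken as 1 kb to either side of any annotated start site, all 7 protein-coding members were accessible, against 64.4% of 21938 protein-coding genes. The promoter region at chr15:61984851-61985791 in replicate 1 had its summit at -205 bp from the Myc start, and in replicate 2 at -155 bp. It had a signal of 5.16 and 5.27, which was lower than that of most promoters, at the 16.2 and 16.5 percentile of 15256 replicated promoter regions. By -log10 q it stood near the middle of those promoters, at 53.4 and 54.2. Other regions lay at -1851 bp and, beside internal start sites, at 1703 and 2522 bp in replicate 1. With 10 kb to either side Myc held 7 replicated regions, 4.88 times the mean of 1.43 for the 1000 protein-coding genes nearest to it in length, of which 0.2% held as many. Several were weak by signal, at the 1.06 and 2.38 percentile of the lists at -3740 bp. At 2522 bp the percentiles were 0.325 and 1.17, and at 5902 bp 2.56 and 2.42. Those at -1851 and 1703 bp were at 9.73 and 9.69 in replicate 1, but at 60.8 and 63.1 by -log10 q. The promoter region stood at 35.8 and 42.2 by signal, and the region at 13562 bp at 66.1 and 71.

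Pvt1 encodes a long noncoding RNA, and its promoter has been described as competing with that of Myc for enhancers. Its promoter was accessible in both replicates, against 20.4% of 5854 lincRNA genes. Any of its 10 annotated start sites could meet the call. Neither this share nor that of protein-coding genes was matched for the number of start sites. The region at its first start site, with the summit 52.6 kb from the Myc start in replicate 1, had a signal of 7.36 and 6.30 and a -log10 q of 44 and 51.7. The strongest of 4 promoter regions by -log10 q lay at an internal start, with 55.4 and 78.3. With 10 kb to either side Pvt1 held 45 and 46 regions, 39 of them replicated. That was 4.82 times the mean of the 1000 protein-coding genes nearest in length, of which 0.4% held as many, and 0.0456% of all protein-coding loci held as many, whatever their length.

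The paralogs Mycn and Mycl, whose proteins pair with MAX as MYC does and which are best known from neural and other non-lymphoid tissue, also had accessible promoters. Mycn, at chr12:12936093-12941914 on the minus strand, had its strongest region at -637 bp from its start in both replicates. The signal there was 9.35 and 8.53 and the -log10 q 75.9 and 97.4. A second promoter region, with its summit at 167 bp in replicate 1 and 357 bp in replicate 2, was weak, with a -log10 q of 3.19 and 10.9. Mycl, at chr4:122995652-123002485 on the plus strand, had a wide promoter region of 2052 and 2146 bp. Its signal was 10.1 and 8.58 and its -log10 q 122 and 137. Among promoter regions Mycn stood at the 44 and 40.4 percentile by -log10 q and Mycl at 59.7 and 50.2, close to the middle. Mycn held 3 replicated regions and Mycl 2, which is 2 and 1.19 times what genes of like length held. The remaining replicated region of each was weak, with a -log10 q of 5.23 and 5.18 at 4.5 kb in Mycn and of 9.05 and 17.4 at -4.2 kb from Mycl in replicate 1.

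Max, the obligate partner, at chr12:76937269-76962201 on the minus strand, had a strong promoter region with a -log10 q of 268 and 437. That is the 91.3 and 94.1 percentile of promoter regions. A second region of Max lay in an intron, 11.7 kb from the start, with a signal of 14.5 and 14.6 and a -log10 q of 191 and 288. Another lay past the gene end, with 22.2 and 23.2. Its 3 replicated regions were 1.14 times the mean for its length.

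Among the antagonists, Mxd1, which is induced as cells leave the cycle, had the strongest promoter region of all members. At chr6:86668718-86669842 in replicate 1, its signal was 15 and 15.1 and its -log10 q 448 and 638. By -log10 q this is the 99.5 and 99.3 percentile of promoter regions. A second strong region lay past the 3′ end of Mxd1, 24.0 kb from the start in replicate 1, with 176 and 233. Between these no replicated region was called. Each replicate had 1 weak region about 14 kb from the start, and the 2 did not overlap. The 3 replicated regions of Mxd1 were 1.15 times the mean for its length.

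Mnt, which is present through the cell cycle and limits MYC activity, had the widest promoter region, at 3194 and 3217 bp. Its -log10 q was 235 and 371, but its signal of 6.7 and 7.04 stood at the 25.6 and 27.6 percentile of promoter regions. A second region that overlapped a promoter window had its summit in an intron, 7.6 kb from the start, with 206 and 280. In replicate 1 that summit lay 1065 bp from an internal start site. Another replicated region lay past the gene, towards Sgsm2, with 24.5 and 34.1. The 3 replicated regions of Mnt were 1.21 times the mean for its length.

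Mxi1, whose gene has several promoters, held 8 replicated regions, 1.79 times the mean for its length, and 15.7% of genes of like length held as many. Of these, 4 overlapped promoter windows. At the first start site the -log10 q was 39.1 and 49.8. The strongest by mean percentile lay 18.9 kb into the gene, at a start of further transcripts, with 107 and 173. Another of the 4, of like strength, had its summit in an intron 3.8 kb from the first start, with 106 and 155. In replicate 1 that summit lay 1222 bp from an internal start site. The order of the antagonists' promoters was Mxd1, Mnt and Mxi1 by -log10 q but Mxd1, Mxi1 and Mnt by signal, in both replicates.

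**Figure D4:**
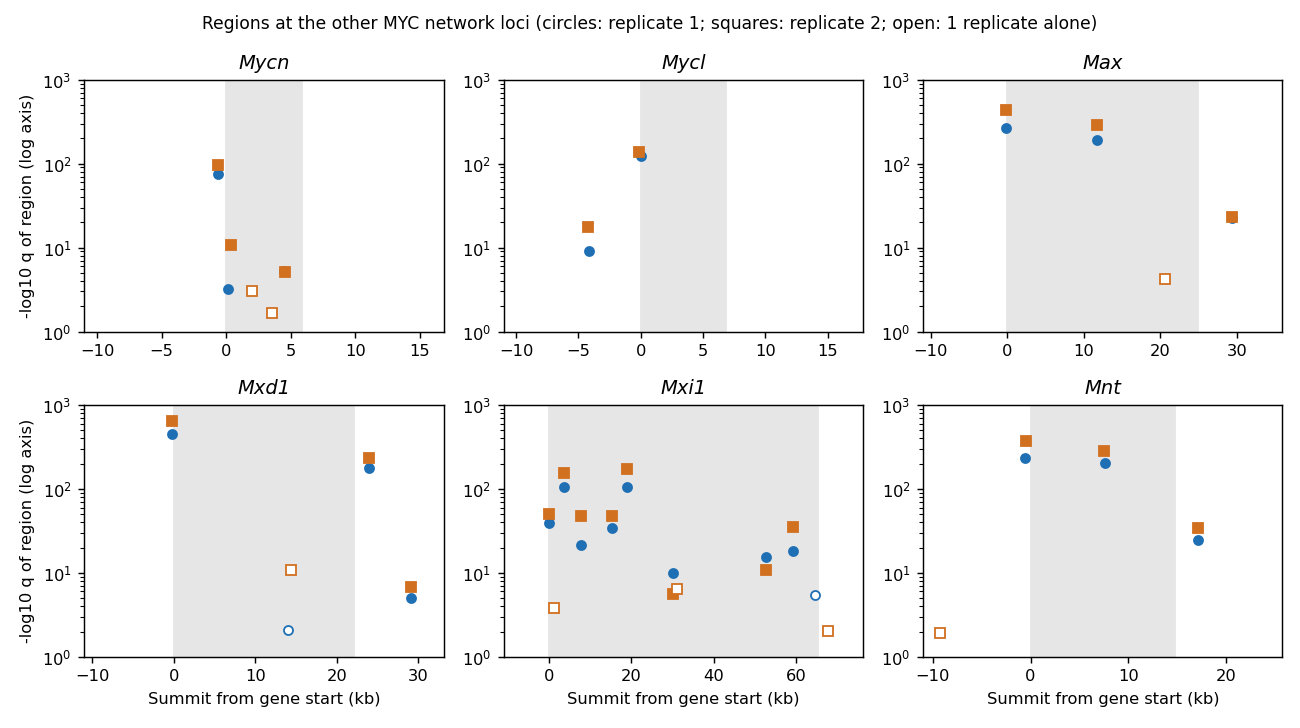
The -log10 q of each region (vertical log axis) against the distance of its summit from the gene start in kb (horizontal axis) at 6 loci, with the gene body shaded, for replicate 1 (circles), replicate 2 (squares) and regions of 1 replicate alone (open). The promoter of Mxd1 is the highest point, at 448 and 638, and Mxi1 has the most regions, with 8 replicated.

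At the 6 loci other than Myc and Pvt1, replicate 1 had 24 regions and replicate 2 had 30, and 22 were replicated. At least 1 replicated region was present at each of the 8 members, against 76.3% of protein-coding loci. All 16 further genes of the network and its cofactors also had an accessible promoter in both replicates, against 64.4% of protein-coding genes. They were Mxd3, Mxd4 and Mga, which pair with MAX, and Mlx, Mlxip and Mlxipl, the related MLX branch that senses glucose. The others were Zbtb17, Trrap, Kat5, Ruvbl1, Ruvbl2, Wdr5, Hcfc1, Sin3a, Sin3b and Fbxw7, which are cofactors, corepressors or, for Fbxw7, the ubiquitin ligase subunit that marks MYC for destruction. Their loci held 2 to 12 replicated regions with a median of 4, against a median of 2 over all protein-coding loci. The most were at Fbxw7, with 12, followed by Mlxipl and Trrap with 5 each. Relative to genes of like length these were 1.72, 1.36 and 0.892 times the mean. The medians were not matched for length. Over the 16 genes the ratio to like-length genes ran from 0.751 at Sin3a to 2.63 at Mxd3. It was below 1 also at Mga, Mlxip and Ruvbl1.

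E-boxes were sought because MYC and MAX bind them. The RefSeq promoter table (GRCm38.p6, 250 bases before to 50 after a start) matched 6 of the 8 members and all 16 further genes. Myc and Pvt1 had no entry. Some genes have several entries. CACGTG stood in 2 of the 8 member entries, those of Max and Mnt, and in 4 of the 22 entries of the further genes, while 7.15% of all 32851 entries held it. Both are shown, 100 bases each on mm10, with the E-box in capitals and read along the gene's strand. The stretch of Max ends with its E-box.
Max at chr12:76962246-76962345, minus strand: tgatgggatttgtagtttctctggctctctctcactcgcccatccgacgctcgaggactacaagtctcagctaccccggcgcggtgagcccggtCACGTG
Mnt at chr11:74830754-74830853, plus strand: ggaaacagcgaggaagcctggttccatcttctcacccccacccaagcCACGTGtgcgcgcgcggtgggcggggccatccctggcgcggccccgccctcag
The E-box of Max begins at -67 bp from the summit of replicate 1, counted along the plus strand. Both E-boxes lie within the promoter regions of both replicates. A match is a description of letters and does not show that a factor was bound.

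Around summits, E-boxes were few, in the Myc window and over the genome. Distal regions here are those outside promoters of protein-coding genes, so regions at start sites of Pvt1 are counted among them. Within 100 bp of the replicate 1 summit, CACGTG stood in 2 of 109 distal regions of the window (1.83%), against 3.2% of 48177 distal regions genome-wide. It stood in 2 of the 22 regions of the 6 other loci, at the Max promoter and in an intron of Mxi1 (9.09%, against 3.98% of all 63433 replicated regions). Promoter regions make up a larger part of the 22 than of all regions, and the shares were not matched for this. One of the Myc window regions, 793.7 kb from Myc, held 2 E-boxes and is shown with the Mxi1 region and the strongest intronic region of Max, in capitals for all motifs.
Region 793.7 kb from Myc at chr15:62778991-62779191, plus strand: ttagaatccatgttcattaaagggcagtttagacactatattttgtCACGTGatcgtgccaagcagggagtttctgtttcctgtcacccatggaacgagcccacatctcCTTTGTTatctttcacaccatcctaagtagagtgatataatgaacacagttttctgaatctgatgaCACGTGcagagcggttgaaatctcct
Mxi1 intron, 30.1 kb from its start at chr19:53340482-53340682, plus strand: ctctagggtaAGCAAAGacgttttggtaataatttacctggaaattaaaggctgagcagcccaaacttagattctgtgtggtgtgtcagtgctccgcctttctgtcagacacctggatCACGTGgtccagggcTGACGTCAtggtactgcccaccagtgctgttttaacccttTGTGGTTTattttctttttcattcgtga
Max intron, 11.7 kb from its start at chr12:76950372-76950572, plus strand: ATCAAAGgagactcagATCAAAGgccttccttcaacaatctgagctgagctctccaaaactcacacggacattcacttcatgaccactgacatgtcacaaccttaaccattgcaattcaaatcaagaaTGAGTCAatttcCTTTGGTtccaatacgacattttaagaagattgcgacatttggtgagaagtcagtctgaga
The region 793.7 kb from Myc was weak, with a -log10 q of 8.84 and 8.72. The Mxi1 window holds an E-box followed by TGACGTCA, the CREB motif, and its -log10 q was 10.1 and 5.67. The Max intron window holds 3 TCF-LEF matches and 1 AP-1 match.

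Motifs of other T cell factors were counted in the same distal regions of the Myc window, and no test was run on their shares. AP-1 matches stood in 32 of the 109 (29.4%, against 22.6% of all distal regions) and STAT matches in 28 (25.7%, against 16%). TGTTTAC stood in 8 (7.34%, against 2.36%). RUNX matches were in 5 (4.59%, against 10.5%), ETS matches (ACAGGAAG) in 5 (4.59%, against 6.86%) and NFAT matches (TGGAAAA) in 5 (4.59%, against 4.98%). TCF-LEF matches were in 21 (19.3%, against 17.4%), and CREB matches in 1 (0.917%, against 0.469%). Neither GGGANTTCC (NF-kB) nor the CTCF core searched was found in the 109, and 2.35% and 2.9% of all distal regions held them. Motifs were sought on both strands and one by one, so a base could count for more than 1. The median GC content around these summits was 44.8%, against 47.8% for all distal regions, and its part in these shares was not tested.

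The 2 deposited measures ranked many member regions differently. In 17 of the 112 replicated regions of the Myc window (15.2%) the signal was below the median of the list and the -log10 q above it, in both replicates, against 5.36% of all replicated regions. The reverse held for 2 (1.79%, against 2.42%). The Myc promoter was one of the 17, with signal percentiles of 35.8 and 42.2 and -log10 q percentiles of 84.6 and 86.7. Of the 17, 4 lay in Pvt1 and 10 in the desert beyond it. At the 6 other loci the count was 3 of 22.

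**Figure D5:**
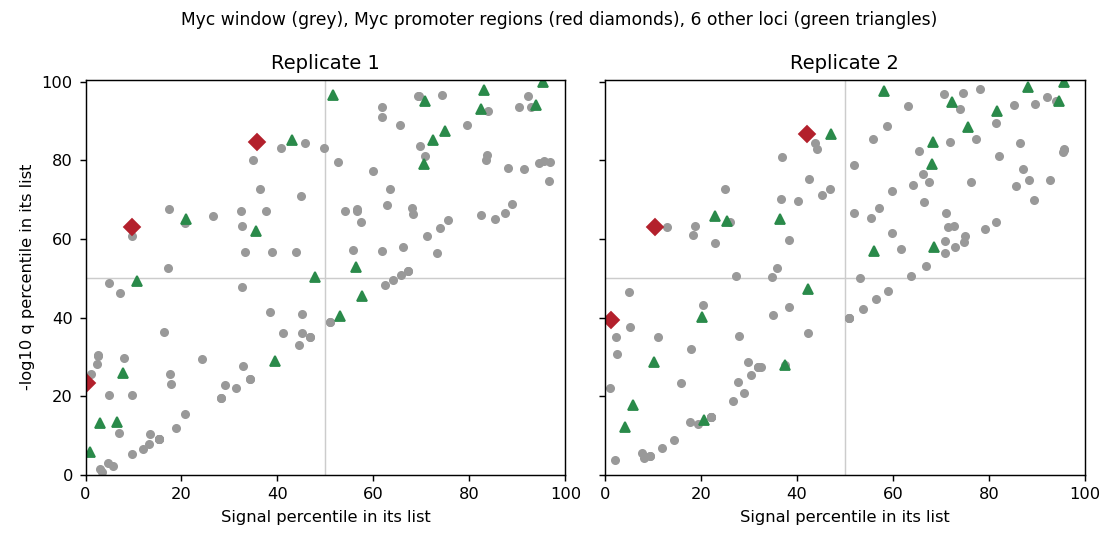
Percentile of each replicated member region by -log10 q (vertical axis) against its percentile by signal (horizontal axis), in replicate 1 (left) and replicate 2 (right). The strongest Myc promoter region (upper red diamond) stands at 84.6 and 86.7 by -log10 q but at 35.8 and 42.2 by signal.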

How the data were processed

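ATAC-seq region lists of 2 libraries of 1 group were analysed, with groups and replicate numbers from the labels. Each list is in narrowPeak form on mm10 and derives from the alignments of 1 library, not pooled, per the file headers of the accompanying text. The authors deposited for each region a signal whose scale is not stated, -log10 p and -log10 q values, and a score limited to 1000 that was not used. The lowest -log10 q was 1.00 in both lists. Entry names hold the words masked, dedup and sorted. Aligner, caller and cut-site offset were not given in the sources used here. The lists hold no counts, so depth is unknown and no interval that needs it is given.

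Coordinates were set against GRCm38 (mm10) and GENCODE M21, and entries off chromosomes 1 to 19, X and Y, 71 and 84, were left out. Overlaps, counts, percentiles (within each list) and motifs were computed in Python 3.11.15 with numpy 2.4.6 and scipy 1.17.1. Entries that overlapped by at least 1 bp, directly or through a shared entry, formed 1 replicated region, and the entry with the highest -log10 q stood for it. Overlap counting was tested on simulated intervals. Regions were named by rule: in the Myc window the 10 with the best mean rank by -log10 q, and at the other loci the promoter and strongest regions. The comparison with like-length genes and with gene gaps, the bins and the E-box windows outside that rule were added after values were seen. The members and lists were chosen with earlier results of these data known. With 1 group no test was run, and counts stand beside those of all genes or regions.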

Additional observations from a re-analysis of the deposited data

How the results depend on the processing

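All 8 members and all 16 further network genes kept an accessible promoter under each alternative run: 50% reciprocal overlap, lists of the 50000 strongest by either measure, a -log10 q of at least 2, each replicate alone, and promoters of 500 bp or 2 kb to either side. With the 50000 strongest entries by signal, the Myc window held 67 replicated regions, 40 of them beyond Pvt1, and its density ratio was 1.93. By -log10 q the ratio was 2.26. Leaving out 1 replicate gave 124 to 130 regions in the window, 71 to 77 beyond Pvt1, 24 to 30 at the 6 other loci and a density ratio of 2.18 to 2.37. With 1 Mb downstream in place of 2 Mb, 42 regions lay beyond Pvt1 and the ratio was 3.62. The shorter window leaves out the far part, which is sparser as a whole. With 50 kb to either side the 6 other loci held 59, since more DNA was counted. The gap from Myc to Gsdmc stayed the densest of 292 under every list and overlap setting run, also with each replicate alone, and came 5 of 712 with gaps of at least 500 kb. Those settings for the gap were chosen after seeing the data. The cause of the lower count by signal was not tested. No paired analysis was possible because there was 1 group. Depth is unknown, so a stretch without regions shows only that none was called.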

Other observations

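Regions of the Myc window found in 1 replicate alone numbered 11 in replicate 1 and 18 in replicate 2. Their signal was low, with a median of 3.3 (2.05 to 4.09) in replicate 1 and 3.38 (2.39 to 10.5) in replicate 2. The highest of these lay at chr15:63006348-63006706, in the desert, with a signal of 10.5 and a -log10 q of 43.1 in replicate 2, at the 79.1 and 62.5 percentile of its list. No region of replicate 1 overlapped it, and its stretch of 183.7 kb held no replicated summit.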
